A study of Mus musculus with 12 samples.

Results

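The 9 genes described here, F3, Tfpi, Thbd, Procr, Pros1, Vwf, Plat, Plau, and Plaur, encode the proteins with which a vessel wall starts, restrains, and dissolves a clot. They were picked by name for that role, with earlier results of these data known. All 9 were among the 19150 genes that held enough reads to be tested, of 54119 genes with summed counts. Vessels had been isolated from the forebrain of wild-type C57BL6 mice of 2 to 3 months and sequenced as 12 RNA libraries, 3 each for PBS and for LPS (bacterial lipopolysaccharide) at 4 h, at 30 min, and at 15 min. LPS was given intraperitoneally at 10 mg/kg. Each library pooled 1 male and 1 female mouse, so a group drew on 6 mice, and all mice had been perfused with PBS through the heart and their meninges removed before the vessels were spun down in dextran and caught on a mesh. How long after injection the PBS mice were killed is not given in the sources used here. A vessel preparation holds endothelium, mural cells, and attached perivascular and blood cells. The libraries also held RNA of marker genes of choroid plexus, astrocytes, neurons, and oligodendrocytes. In such bulk RNA more cells of a type and more RNA per cell cannot be told apart.

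Clotting starts when blood meets tissue factor, the product of F3, which binds factor VII and leads to thrombin. Endothelium holds this in check at several steps. Tissue factor pathway inhibitor (Tfpi) blocks the first complex. Thrombomodulin (Thbd) turns thrombin into an activator of the anticoagulant protein C, and the endothelial protein C receptor (Procr) works beside it on protein C. Protein S (Pros1) is the cofactor of activated protein C. Von Willebrand factor (Vwf) is stored in endothelial granules and tethers platelets. Plasminogen is turned into the clot-dissolving enzyme plasmin by tissue-type (Plat) and urokinase-type (Plau) plasminogen activator, and Plaur encodes the receptor that holds urokinase at the cell surface.

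Levels are given as CPM, counts scaled to one library total after TMM (a factor per library that sets most genes equal between libraries). Genes are compared with each other only as TPM, which is also scaled for transcript length. Libraries held 18.3 to 25.9 M estimated fragments. A gene was called when edgeR found its change to exceed 1.5-fold (log2 0.58) at an adjusted p under 0.05 over all 19150 genes, so that smaller changes could not pass however well they were measured. Log2 fold changes are given with their SE. A member said not to pass had an adjusted p of 1 unless another value is printed. The comparisons with PBS share the same 3 PBS libraries. With library size alone in place of TMM factors the median of all genes was -0.71 (log2) at 4 h and -0.18 at 30 min, against -0.01 at both times with TMM, and changes are to be read relative to the bulk of the genes. At 4 h 3660 of 6315 called genes were higher, against 1919 of 10523 with library size alone, and at 30 min 728 of 884 against 543 of 893.

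At 15 min 1 of the 9 genes passed the test and rose, Plaur, where 4.25% of all genes were called and 3.35% were called higher. At 30 min 2 of 9 passed and both rose, Plat and Plaur, where 4.62% of all genes were called and 3.80% were called higher. At 4 h 6 of 9 passed: Procr, Pros1, Plat, Plau, and Plaur rose and Vwf fell, where 33.0% of all genes were called, 19.1% higher and 13.9% lower. The balance at 4 h depends on the scaling: with library size alone 4 rose (Procr, Plat, Plau, Plaur) and 4 fell (F3, Tfpi, Thbd, Vwf), and with limma on TPM 3 rose (Procr, Plat, Plaur) and the same 4 fell. Of all 19150 genes, 10523 were called with library size alone, 1919 of them higher and the rest lower. With limma on TPM 10233 were called, 1474 of them higher and the rest lower. In log2 terms the 9 genes had a median change of -0.19, 0.09, and 1.09 in order of time, and all genes one of -0.00, -0.01, and -0.01. The 3 LPS libraries lay wholly above or below the 3 PBS libraries for 8 of the 9 early on (15 min), for 6 at 30 min, and for 8 at the last time, and the same held for 49.3%, 46.7%, and 70.9% of all genes.

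**Figure D1:**
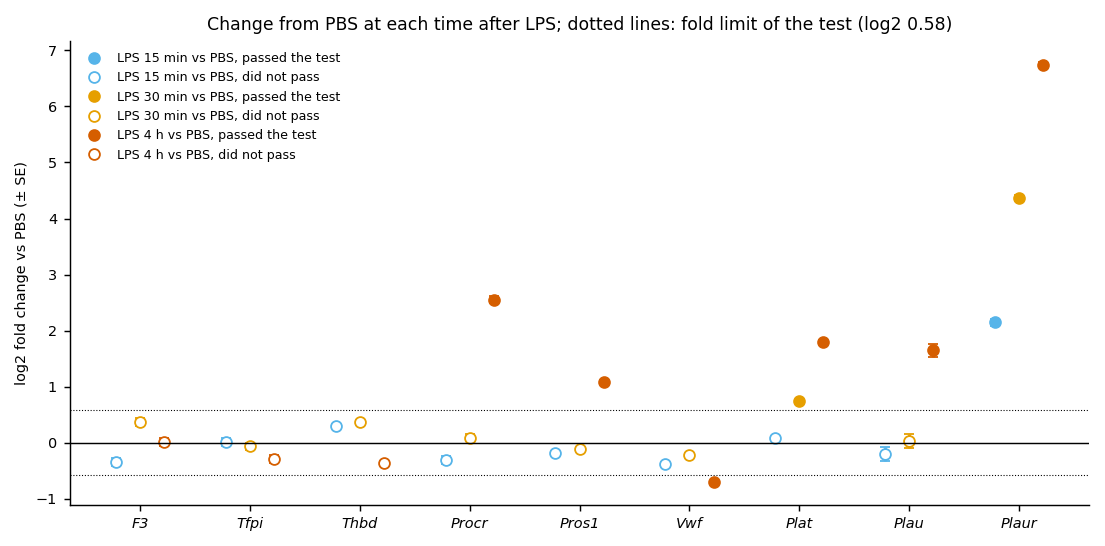
Log2 fold change from PBS (vertical axis, ± SE) of the 9 genes (horizontal axis) at 4 h (orange), 30 min (yellow), and 15 min (blue); filled points passed the edgeR test and dotted lines mark its fold limit. Plaur stood at 2.15, 4.37, and 6.75 in turn, Plat at 0.08, 0.74, and 1.80, and Vwf was the only filled point below 0 at -0.71.

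Promoter bases from RefSeq (GRCm38.p6) were at hand for 5 of the 9 genes (F3, Tfpi, Procr, Pros1, Plaur). Those of the 3 genes whose window held a match to the AP-1 motif TGANTCA are shown 5′ to 3′, since Plaur and Procr had the 2 largest rises at 4 h and F3 did not pass the test at any time. Each run ends directly before the GENCODE gene start of Procr and F3 and 1 base short of it in Plaur. The window of Procr, of 150 bases, and that of Tfpi, of 234, are shorter than the others (250), as their last bases lay inside the GENCODE gene. Capitals mark the AP-1 matches.
Plaur, chr7:24462233-24462482, plus strand: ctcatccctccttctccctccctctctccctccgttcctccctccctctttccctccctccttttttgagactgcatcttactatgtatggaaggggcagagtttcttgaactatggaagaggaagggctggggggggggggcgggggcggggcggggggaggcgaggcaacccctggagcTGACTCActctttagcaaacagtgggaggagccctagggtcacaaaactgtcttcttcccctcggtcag
Procr, chr2:155750967-155751116, plus strand: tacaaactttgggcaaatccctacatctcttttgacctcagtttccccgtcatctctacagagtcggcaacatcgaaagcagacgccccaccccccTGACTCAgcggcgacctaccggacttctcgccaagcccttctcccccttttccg
F3, chr3:121723287-121723536, plus strand: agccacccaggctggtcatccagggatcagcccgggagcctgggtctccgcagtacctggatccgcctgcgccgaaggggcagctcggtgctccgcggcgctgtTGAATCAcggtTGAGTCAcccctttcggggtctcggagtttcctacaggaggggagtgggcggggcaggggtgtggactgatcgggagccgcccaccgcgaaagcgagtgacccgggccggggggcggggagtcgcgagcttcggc
The match began 69 bases from the end of the run in Plaur, 54 in Procr, and 146 and 135 in F3. Of all 32851 promoters in the table, 6.75% held TGANTCA within 250 bases before the start, on either strand. The windows of Tfpi and Pros1 held none. The SP1 motif GGGCGG, present in 32.7% of all promoters, was found 5 times in Pros1, 3 times each in F3 and Plaur, and once in Tfpi. The cyclic AMP response element TGACGTCA (1.55% of promoters) and the NF-kB consensus (3.9%) had no match in any of the 5 windows, and TATAAA (12.4%) had 1, in Tfpi. A match is a description of the letters and not of binding, and AP-1 matches stood both in genes that rose and in one that did not pass.

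Plaur (chr7:24462484-24475968, plus strand, protein coding, with all gene positions here in GRCm38) showed the largest change of the 9. It was the only member to pass the 1.5-fold test at 15 min. PBS libraries held 8.28, 6.75, and 6.68 CPM, and those of 15 min 30.8, 32.5, and 33.0. The level was 154, 147, and 147 at 30 min and 774, 777, and 779 at 4 h. No library of a later group overlapped any library of an earlier one. The log2 fold change from PBS was 2.15 ± 0.06 at 15 min (4.44-fold, edgeR adjusted p = 4.79e-16), 4.37 ± 0.05 at 30 min (20.7-fold, 2.16e-25), and 6.75 ± 0.05 at 4 h (107-fold, 3.03e-30). These values rest on 175 to 221 fragments in a PBS library and 10038 to 11664 at 4 h. The steps between the LPS times passed as well, at 2.22 ± 0.04 from 15 to 30 min (adjusted p = 3.67e-20) and 2.38 ± 0.03 from 30 min to 4 h (1.65e-23).

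The main Plaur transcript, Plaur-201, whose 327 codons span the full receptor, held 91.1% ± 8.76 (SD, n = 3) of the gene's TPM in PBS and 95.2% ± 0.686 at 4 h. Its TPM was 8.29 ± 0.854 in PBS, 37.2 ± 1.95 at 15 min, 139 ± 4.30 at 30 min, and 497 ± 2.85 at 4 h. The same coding form thus carried most of the estimated abundance before and after LPS. The 3 genes whose change from their own PBS mean was nearest to that of Plaur over the 12 libraries, by root mean square difference in log2(CPM + 0.5), were Gm45774 (0.396), Il1b (0.427), which encodes interleukin-1 beta, and Ptgs2 (0.546), which encodes cyclooxygenase-2. Among 12802 genes compared none was closer than 0.396, whereas every other member had a nearest gene at 0.12 or less. This distance is not scaled to the size of the change, which was largest for Plaur, so the contrast is not one of shape alone.

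Plau (chr14:20836660-20843385, plus strand), the urokinase that the receptor binds, followed another course. Its CPM was 7.155, 8.10, and 7.75 in PBS, 7.155, 6.33, and 6.49 at 15 min, and 7.15, 8.48, and 7.87 at 30 min. Plau is counted among the genes whose 15 min libraries all lay below PBS. The highest 15 min library and the lowest PBS library were equal to the digits shown. At 4 h it was 22.0, 22.1, and 28.1. Only the 4 h libraries stood clear of all others. The change from PBS was -0.20 ± 0.12 at 15 min and 0.03 ± 0.12 at 30 min, which did not pass, and 1.65 ± 0.12 at 4 h (3.14-fold, adjusted p = 3.85e-09). Plau rested on few fragments, 149 to 240 per library before 4 h and 285 to 412 at 4 h. Within a library, the ratio of Plaur to Plau TPM was 1.63 ± 0.390 in PBS, 8.28 ± 0.615 at 15 min, 33.4 ± 3.91 at 30 min, and 55.8 ± 7.75 at 4 h, so each group lay above the one before it. At 4 h the rise of Plau was 0.95 with library size alone (adjusted p = 0.00129) and 0.72 on TPM, where it did not pass (0.204).

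Plat (chr8:22757727-22782844, plus strand), which encodes the plasminogen activator that endothelium secretes, was 264, 266, and 279 CPM in PBS and 285, 289, and 279.9 at 15 min. It was 455, 445, and 449 at 30 min and 940.2, 946, and 938 at 4 h. The 15 min libraries lay just above the PBS libraries, and the later groups far above both. The change from PBS was 0.08 ± 0.02 at 15 min, which did not pass, 0.74 ± 0.02 at 30 min (1.67-fold, adjusted p = 6.55e-06), and 1.80 ± 0.02 at 4 h (3.49-fold, 4.62e-23). The direct comparison of 30 with 15 min gave 0.66 ± 0.02 (adjusted p = 0.00954), and that of 4 h with 30 min gave 1.07 ± 0.02 (1.77e-15). From 15 to 30 min 2 of the 9 genes rose, Plat and Plaur, where 4.76% of all genes were called and 2.77% higher. The libraries of the 2 groups did not overlap for 6 of the 9, as for 47.6% of all genes. The call for Plat in that step was lost without replicate 3 of the 15 min group (0.65, adjusted p = 0.0624) or without replicate 1 of the 30 min group (0.65, 0.0533). With library size alone the change of Plat at 30 min was 0.57 and that from 30 min to 4 h 0.53, and neither passed.

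The single full-length transcript Plat-201 (559 codons) held 97.9% to 99.0% of the gene's TPM as a group mean, so one form prevailed throughout. Genes nearest to Plat in course were Bcl6 (0.101), a transcriptional repressor, Tmem185b (0.101), and Flvcr1 (0.117), a heme exporter. Plat RNA outnumbered Plau RNA in all groups: the Plau to Plat ratio on the TPM scale was 0.0314 ± 0.00206 in PBS and 0.0282 ± 0.00424 at 4 h.

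**Figure D2:**
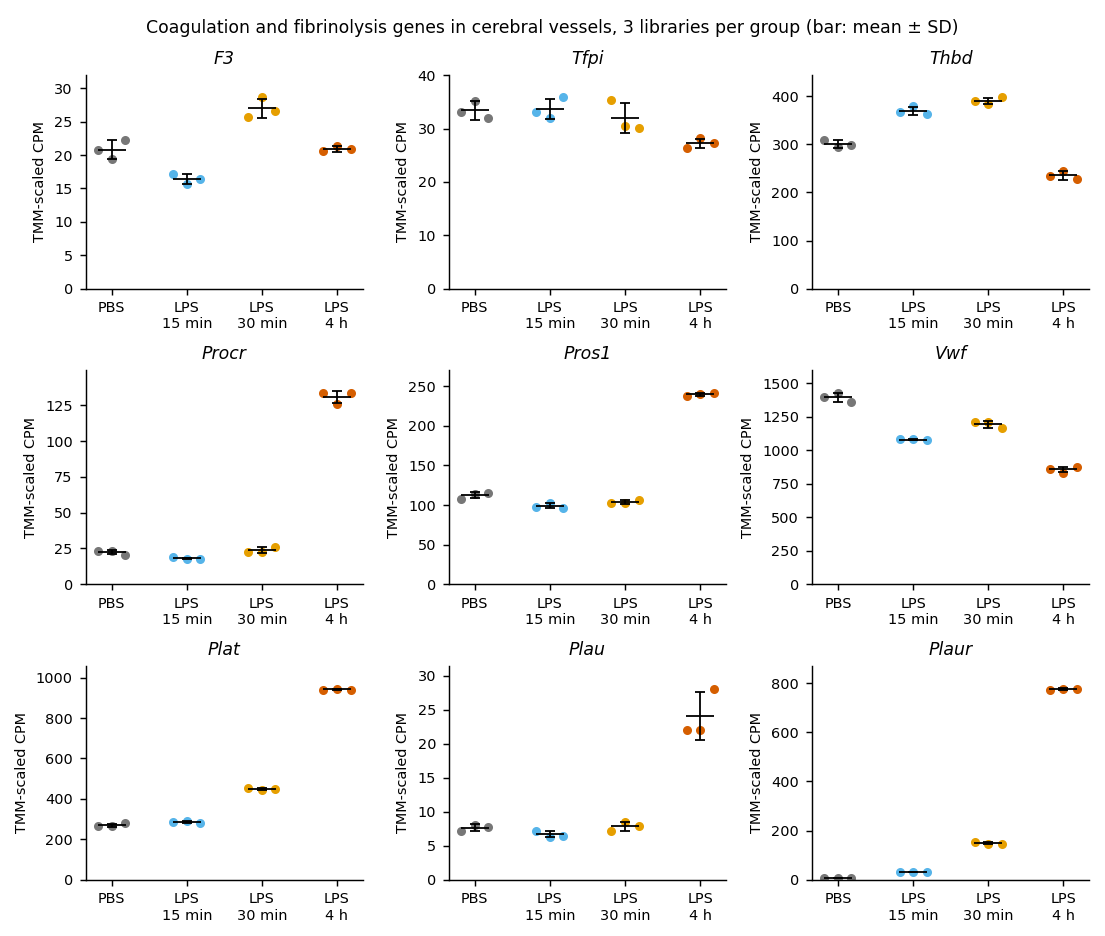
TMM-scaled CPM (vertical axes, starting at 0) of each gene in PBS and in the LPS groups by time (horizontal axes); points are libraries and bars the mean ± SD of 3. Plaur and Plat climbed from 7.24 and 270 CPM to 776 and 942, Procr and Plau were highest at 4 h with no overlap, and F3 was lowest at 15 min and highest at 30 min.

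Procr (chr2:155751117-155755471, plus strand) had the second largest rise at 4 h. Its CPM was 23.2, 23.3, and 20.5 in PBS, 18.7, 17.6, and 17.8 at 15 min, and 22.8, 22.4, and 26.2 at 30 min. At 4 h it was 133, 126, and 134. The 15 min libraries were all below PBS, the 30 min libraries overlapped PBS, and the 4 h libraries were far above. The changes were -0.31 ± 0.07 and 0.09 ± 0.07, neither of which passed, and then 2.55 ± 0.06 (5.86-fold, adjusted p = 2.09e-19). From 30 min to 4 h the rise was 2.46 ± 0.06 (adjusted p = 8.68e-19). Procr-201, the transcript of 242 codons that encodes the full receptor, made up 80.2% ± 1.59 of the gene's TPM in PBS and 79.5% ± 2.22 at 4 h. The nearest genes in course were Serpinb9 (0.12), a granzyme B inhibitor, Arhgap26 (0.12), and Txnrd1 (0.126), a thioredoxin reductase.

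Thbd (chr2:148404466-148408188, minus strand, 1 exon), whose product works beside the Procr receptor on protein C, went the other way. Its CPM was 309, 295, and 299 in PBS, 368, 379, and 363 at 15 min, 390.3, 384, and 398 at 30 min, and 234, 245, and 228 at 4 h. The libraries of both early groups were all above PBS and those of 4 h all below it. None of these changes passed the test for more than 1.5-fold: 0.30 ± 0.03, 0.38 ± 0.03, and -0.35 ± 0.03. The step from 30 min to 4 h did, at -0.73 ± 0.03 (1.66-fold lower, adjusted p = 2.10e-05). From 30 min to 4 h 5 of the 9 genes rose and 1 fell, Thbd, where 28.9% of all genes were called, 17.0% higher and 11.9% lower. With library size alone 4 rose and 4 fell in that step, where 8915 of 19150 genes were called, 1936 of them higher. The libraries of the 2 groups did not overlap for any of the 9, nor for 67.5% of all genes. The 4 h change from PBS was -1.06 with library size alone and -1.26 on TPM, and on both scales it passed.

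The ratio of Procr to Thbd TPM within a library was 0.211, 0.215, and 0.187 in PBS and 1.56, 1.39, and 1.60 at 4 h. Thrombomodulin RNA was the more abundant of both in each library up to 30 min, and receptor RNA in each library at 4 h. Genes closest to Thbd in course were Tubb5 (0.0628), a beta tubulin, Zkscan3 (0.065), and Sema3c (0.0676), a secreted semaphorin.

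Pros1 (chr16:62854307-62929346, plus strand), which encodes protein S, the cofactor of activated protein C, was 108, 114, and 115 CPM in PBS, 97.9, 102, and 96.7 at 15 min, and 102, 103, and 106 at 30 min. At 4 h it was 238, 240.4, and 242. Both early groups lay below all PBS libraries by a small margin and the 4 h group above them. The changes were -0.19 ± 0.03 and -0.12 ± 0.03, which did not pass, and 1.09 ± 0.03 at 4 h (2.13-fold, adjusted p = 2.75e-13). The step from 30 min to 4 h was 1.21 ± 0.03 (adjusted p = 8.32e-15). This call depends on the scaling: with library size alone the 4 h change of Pros1 was 0.39 and on TPM 0.12, and neither passed. The nearest genes were Spop (0.0437), Parp16 (0.0599), and Flt4 (0.0611), which encodes a receptor for the lymphatic growth factor VEGF-C.

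Tfpi (chr2:84432855-84476775, minus strand) was 33.1, 35.3, and 31.9 CPM in PBS, 33.2, 32.1, and 35.9 at 15 min, 35.3, 30.4, and 30.2 at 30 min, and 26.4, 28.2, and 27.3 at 4 h. The first 3 groups overlapped and the 4 h group was below all of them. The changes from PBS, 0.01 ± 0.07, -0.06 ± 0.07, and -0.29 ± 0.07, did not pass. At 4 h Tfpi did pass as lower with library size alone (adjusted p = 1.93e-06) and on TPM with limma (-1.02, adjusted p = 0.000674). The closest genes in course were Ppp1r12c (0.0596), Coq6 (0.0646), and Foxk1 (0.0715).

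Alternative 3′ ends of Tfpi are known to give secreted and membrane-anchored forms of the inhibitor. The annotation holds 3 coding ends: transcripts of 300 to 306 codons that end at base 84433099, of 235 codons that end at 84442873, and of 246 to 247 codons that end at 84443206. They took 38.5% ± 6.38, 29.5% ± 3.53, and 6.81% ± 0.942 of the TPM of Tfpi in PBS (SD, n = 3), and noncoding transcripts the rest. At 4 h these shares were 39.5% ± 4.74, 21.6% ± 3.33, and 7.18% ± 1.08. For the longest form and the 246 to 247 codon form the libraries of PBS and 4 h overlapped. For the 235 codon form every 4 h library (19.1% to 25.4%) was below every PBS library (25.6% to 32.6%). Shares were not tested, as they are estimates in which Salmon divides reads between transcripts that share exons.

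F3 (chr3:121723537-121735048, plus strand) was 20.8, 19.4, and 22.3 CPM in PBS and 17.2, 15.7, and 16.3 at 15 min. It was 25.7, 28.6, and 26.6 at 30 min and 20.6, 21.4, and 20.8 at 4 h. The libraries of 15 min were all below PBS, those of 30 min all above, and those of 4 h within the PBS range. The changes from PBS were -0.34 ± 0.07, 0.38 ± 0.07, and 0.01 ± 0.08, none of which passed. The step from 15 to 30 min was 0.72 ± 0.07 (1.64-fold) and missed the threshold (adjusted p = 0.157). At 4 h the direction of F3 depended on the scaling: the change was -0.69 with library size alone (adjusted p = 0.0425) and -1.02 on TPM with limma (6.58e-05). Igfbp2 (0.0812), which encodes an insulin-like growth factor binding protein, Col8a2 (0.0819), a basement membrane collagen chain, and Nudt4 (0.0856) followed the course of F3 most closely.

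A pair of F3 transcripts held nearly all of its TPM. F3-201 has 6 exons and 294 codons. F3-204 is annotated from within exon 3 on and lacks exon 5 of F3-201 (chr3:121732381-121732540, 160 bases), and its reading frame ends later, at base 121734387 and not 121734236. An alternatively spliced tissue factor without exon 5 is known as a soluble form. The 30 coding bases on either side of the junction after exon 4 show the difference, with the bases of the next exon in capitals.
F3-201, exon 4 to exon 5: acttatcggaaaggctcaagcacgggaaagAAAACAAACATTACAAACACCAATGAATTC
F3-204, exon 4 to exon 6: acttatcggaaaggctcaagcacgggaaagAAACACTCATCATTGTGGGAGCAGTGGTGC
The share of F3-201 was 57.6%, 65.0%, and 58.3% in PBS, 53.0%, 58.4%, and 60.2% at 15 min, 54.0%, 73.2%, and 59.9% at 30 min, and 78.6%, 81.4%, and 69.7% at 4 h. That of F3-204 was 35.8% ± 7.62 in PBS, 40.5% ± 4.91 at 15 min, 35.0% ± 9.55 at 30 min, and 20.4% ± 6.39 at 4 h. All 4 h libraries were above all PBS libraries for F3-201, by a narrow margin in replicate 3, while for F3-204 the highest 4 h library (27.5%) overlapped the lowest PBS library (27.1%). These shares rest on 267 to 321 fragments of F3 per library at 4 h and were not tested.

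**Figure D3:**
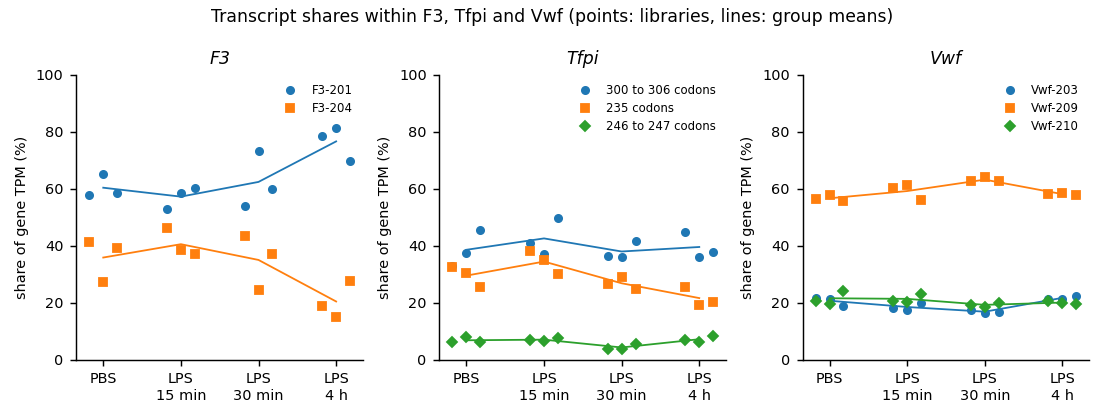
Share of the TPM of F3, Tfpi, and Vwf held by named transcripts (vertical axis, percent) in the 4 groups (horizontal axis); points are libraries and lines join group means. F3-201 held 60.3% in PBS and 76.5% at 4 h, the means of the Tfpi forms kept their order, and the 456-base Vwf-209 held 56.6% to 63.1% of the Vwf TPM.

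The ratio of Thbd to F3 TPM within a library, which sets the main thrombin cofactor of the anticoagulant side against the initiator, was 5.37 ± 0.411 in PBS, 8.28 ± 0.623 at 15 min, 5.42 ± 0.0948 at 30 min, and 4.55 ± 0.281 at 4 h. Every 15 min library (7.66 to 8.91) was above every PBS library (4.92 to 5.73), and every 4 h library (4.23 to 4.77) was below. For Tfpi to F3 the ratio was 1.27 ± 0.165 in PBS and 1.27 ± 0.0995 at 4 h.

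Vwf (chr6:125546774-125686679, plus strand) had the highest fragment count of the 9 in each library up to 30 min. At 4 h Plat had a higher count than Vwf in each library. The CPM of Vwf was 1399.8, 1428, and 1363 in PBS and 1082, 1083, and 1074 at 15 min. It was 1210.5, 1211, and 1166 at 30 min and 858, 834, and 878 at 4 h. All LPS libraries were below all PBS libraries, and the 30 min group was above the 15 min group. The changes were -0.37 ± 0.02 and -0.22 ± 0.02, which did not pass, and -0.71 ± 0.02 at 4 h (1.63-fold lower, adjusted p = 1.17e-05). From 30 min to 4 h the change was -0.48 ± 0.02 and did not pass. Dag1 (0.0302), which encodes dystroglycan, Orai3 (0.0542), a calcium channel, and Cat (0.0563), catalase, were nearest in course.

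The level of Vwf depends on how its transcripts are weighed. Vwf-203, of 52 exons and 2813 codons, held only 20.7% ± 1.47 of the gene's TPM in PBS. Vwf-209, a noncoding transcript of 456 bases that lies inside the last stretch of Vwf-203 (chr6:125685737-125686635), held 56.6% ± 1.05, and Vwf-210, which is annotated as subject to nonsense-mediated decay, 21.5% ± 2.36. The TPM of Vwf-203 was 185, 188, and 165 in PBS, 135, 134, and 134 at 15 min, 124, 122, and 115 at 30 min, and 60.8, 58.2, and 61.7 at 4 h. The groups of this long form did not overlap, and each lay below the one before it. TPM takes no TMM factors, so these steps include the shift of the bulk of the genes. With library size alone the median of all genes was -0.14 (log2) from 15 to 30 min and -0.58 from 30 min to 4 h. In TMM-scaled CPM the whole gene went the other way from 15 to 30 min, from a mean of 1080 to 1196. When the fit took the average transcript length of the gene into account, the change of Vwf was 0.02 at 30 min, against -0.22 without it, and -0.76 at 4 h (adjusted p = 0.000172).

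On the TPM scale, where genes can be ranked, PBS vessels held most Plat (182 ± 2.76, SD, n = 3) and Vwf-203 (179 ± 12.7), whose libraries overlapped. Thbd (133 ± 4.77), Pros1 (61.6 ± 4.68), and Tfpi (31.3 ± 1.65) followed, each clear of its neighbours. Procr (27.3 ± 2.58) and F3 (24.9 ± 1.83) overlapped, and Plaur (9.19 ± 1.69) and Plau (5.69 ± 0.336) came last. At 4 h the order was Plaur (522 ± 4.93), Plat (336 ± 4.43), Procr (83.9 ± 3.97), Pros1 (67.1 ± 2.54), Vwf-203 (60.2 ± 1.81), Thbd (55.4 ± 2.14), Tfpi (15.4 ± 1.13), F3 (12.2 ± 0.305), and Plau (9.48 ± 1.33). No neighbours in that order overlapped. This order takes a single transcript for Vwf: the TPM of the whole gene was 867 ± 11.5 in PBS, above all other members, and 278 ± 5.94 at 4 h, between Plat and Procr. Plaur stood above Plau alone in PBS and above all other members at 4 h.

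**Figure D4:**
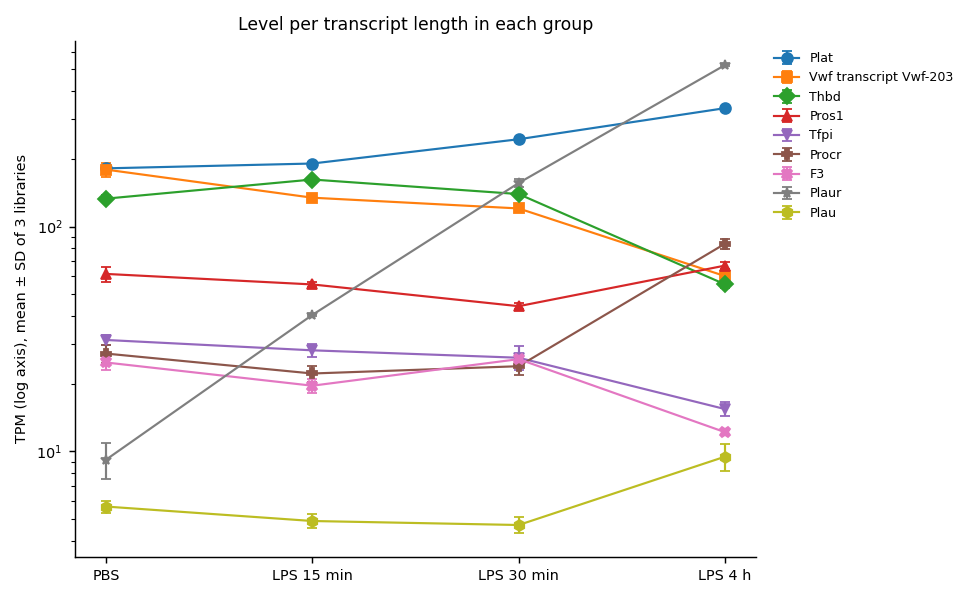
TPM (vertical log axis, mean ± SD of 3 libraries) of 8 genes and of the long Vwf transcript Vwf-203 in each group (horizontal axis). Plaur crossed all lines above it, from 9.19 in PBS to 522 at 4 h, and Procr crossed Thbd between 30 min and 4 h.

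The rest of the clotting and fibrinolysis system was read from 51 further genes in 5 lists, of which 37 could be tested. At 15 min none of the 37 rose and 3 fell, at 30 min 2 rose and none fell, and at 4 h 12 rose and 2 fell. Their median change was -0.21, -0.03, and 0.29 (log2) in order of time. Of all genes, 3.35%, 3.80%, and 19.1% were called higher at these times, and 0.898% and 13.9% were called lower at 15 min and at 4 h.

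Of 15 genes for initiation and clotting factors 6 were tested, and at 4 h F5 and F10 rose. F5, which encodes factor V, the cofactor in thrombin formation, went from 110.0 ± 3.28 CPM in PBS to 207 ± 5.11 (0.91 ± 0.04, adjusted p = 6.11e-08). F10, the zymogen that factor V serves, went from 0.245 ± 0.113 to 8.32 ± 1.54 CPM (5.07 ± 0.38, 1.44e-10). F7 (1.04 and 1.55 CPM), F8 (1.118 and 0.825), F13a1 (28.3 and 34.6), and Klkb1 (1.49 and 1.52) did not pass at 4 h. The list's median was 0.43 at 4 h. The liver-made factors were near 0: prothrombin (F2) had 12 fragments over the 3 PBS libraries and 2 at 4 h, and fibrinogen gamma (Fgg) 0 and 17.

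Of 11 anticoagulant genes 9 were tested, with a median of 0.21 at 4 h, when 2 rose. Tfpi2, which encodes a relative of Tfpi that inhibits plasmin and other proteases of the matrix, went from 0.423 ± 0.11 CPM in PBS to 26.5 ± 2.99 (5.95 ± 0.25, adjusted p = 1.47e-15). Serpina10, the protein Z-dependent inhibitor of factor X, went from 0.0734 to 0.964 CPM (adjusted p = 0.00101). At 15 min Serpind1, which encodes heparin cofactor II, fell from 7.96 ± 1.52 to 2.88 ± 0.432 CPM (-1.46 ± 0.17, 0.000185). Antithrombin (Serpinc1, 10.3 and 6.64 CPM) and Entpd1 (182 and 209.8), an enzyme that breaks down the platelet agonist ADP, did not pass at 4 h.

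Of 11 plasminogen genes 9 were tested, with a median of 0.39 at 4 h, when none fell and those that rose included Serpinb2, Serpinf2, and Anxa2. Serpinb2, which encodes a serine protease inhibitor, went from 0.0382 to 2.45 CPM (adjusted p = 3.79e-06), and Serpinf2, the plasmin inhibitor, from 0.177 to 1.35 (0.00185). Anxa2, which encodes a cell-surface docking protein for Plat and plasminogen, went from 194 ± 3.99 to 324 ± 10.2 CPM (0.74 ± 0.03, 4.45e-06). Plasminogen itself (Plg) had 0 fragments over the PBS libraries and 6 at 4 h.

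Of the 4 thrombin receptor genes F2r, which encodes PAR1, rose at 4 h from 18.5 ± 0.336 to 32.5 ± 1.04 CPM (0.81 ± 0.08, adjusted p = 0.00303). F2rl1 (18.9 and 13.5 CPM), F2rl2 (0.433 and 0.457), and F2rl3 (2.32 and 2.52) did not pass, and the median was 0.11.

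Of 10 genes for the storage, release, and cleavage of von Willebrand factor 9 were tested, with a median of -0.12 at 4 h. Genes for cargo of the same granules rose while Vwf itself fell. Selp, which encodes P-selectin, was 0.672 ± 0.249 CPM in PBS, 0.155 ± 0.134 at 15 min, 12.97 ± 1.25 at 30 min, and 1129 ± 14.2 at 4 h, where the change was 10.71 ± 0.08 (adjusted p = 1.17e-29). Angpt2, which encodes angiopoietin-2, went from 20.2 ± 0.908 in PBS to 151 ± 5.88 at 4 h (2.90 ± 0.07, 8.95e-20), and Cd63, a granule membrane protein, from 158 ± 4.62 to 268 ± 5.97 (0.76 ± 0.03, 2.93e-06). Rab27a and Sytl4, which encode a GTPase of these granules and its partner, fell by 1.03 ± 0.12 (adjusted p = 0.000498) and by 1.02 ± 0.20 (0.0175) on the log2 scale. The cleaving enzyme Adamts13 had 6 fragments over the PBS libraries.

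Markers of the cell types in the preparation moved with several of these results. Of 8 endothelial markers 5 fell at 4 h (Pecam1, Cldn5, Slco1a4, Kdr, Tek) and Cdh5 rose, and their summed level lay between 7612 and 7788 CPM in PBS and between 4922 and 4971 at 4 h. All 4 arterial endothelial markers fell, and their sum lay between 827 and 873 CPM in PBS and between 258 and 270.1 at 4 h. The sum of 4 venous endothelial markers lay between 416 and 426 CPM in PBS and between 1679 and 1711 at 4 h, where Ackr1 rose and Slc38a5 and Ephb4 fell. Vwf and Thbd lay below PBS in these libraries and Plat, Procr, and Pros1 above it, and the part of these markers in the result was not tested. At 15 min, when Thbd was above PBS in each library, the endothelial sum was below PBS at 6053 to 6119 CPM. The part of these markers was not tested at that time either.

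Of 7 neutrophil markers 6 were tested and all 6 rose at 4 h, and their sum was 4.23 to 5.12 CPM in PBS, 2.48 to 3.28 at 15 min, 5.27 to 7.11 at 30 min, and 187 to 188 at 4 h. The defining marker Ly6g had 0 fragments over the PBS and the 15 min libraries, 2 over those of 30 min, and 13 over those of 4 h. Of 4 monocyte markers none was called at 15 min, Ly6c2 alone rose at 30 min, and 3 rose at 4 h. The median log2 change of the list was 0.0001 at 15 min and 0.165 at 30 min. Its sum was 38.7 to 47.9 CPM in PBS, 63.3 to 68.9 at 15 min, 68.4 to 77.3 at 30 min, and 135 to 139 at 4 h. The 4 border macrophage markers summed to 87.4 to 93.0 CPM in PBS and 139 to 145 at 4 h, where Mrc1 and Lyve1 rose. The 6 microglia markers summed to 152 to 159 CPM in PBS and 93.5 to 101 at 4 h, where P2ry12, Cx3cr1, and Sall1 fell. Plaur and Plau rose in the same 4 h libraries, and the part of these cells in that rise was not tested. At 15 min, when Plaur was 4.44-fold higher, the neutrophil, border macrophage, and microglia sums were below PBS and the monocyte sum was above it. The part of these cells was not tested at that time either. Of 11 platelet markers 2 rose at 4 h (sum 43.7 to 48.2 CPM in PBS, 63.1 to 71.7 at 4 h). Of 3 erythroid markers Hbb-bs rose at 15 min, Hba-a1 and Hbb-bs rose at 30 min, and all 3 rose at 4 h. Their sum was 1480.0 to 1596 CPM in PBS, 2268 to 2339 at 15 min, 2854 to 2975 at 30 min, and 4442 to 4649 at 4 h. What part erythroid RNA had in the changes of the members was not tested at any time. Hepatocyte markers were at or below 0.683 CPM in sum in each library.

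Of 5 astrocyte markers 2 fell at 15 min, Gfap and Gjb6, and the sum of the list lay between 341 and 373 CPM in PBS and between 205 and 227 at 15 min. So did 3 of 4 smooth muscle markers, with a sum between 2346 and 2382 CPM in PBS and between 1488 and 1508 at 15 min. F3 was below PBS in each library at that time, and the part of these cells in its level was not tested. Of 4 neuron markers 2 rose at 15 min, Syt1 and Slc17a7. The neuron sum lay between 286 and 296 CPM in PBS, between 453 and 463 at 15 min, and between 275 and 277 at 30 min. What part neuron RNA had in the 15 min changes of the members was not tested. Of 3 choroid plexus markers 2 rose at 4 h. The sum of all 3 lay between 10260.0 and 10690.0 CPM in PBS and between 17250.0 and 18140.0 at 4 h. What part choroid plexus RNA had in the 4 h changes of the members and lists was not tested.

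**Figure D5:**
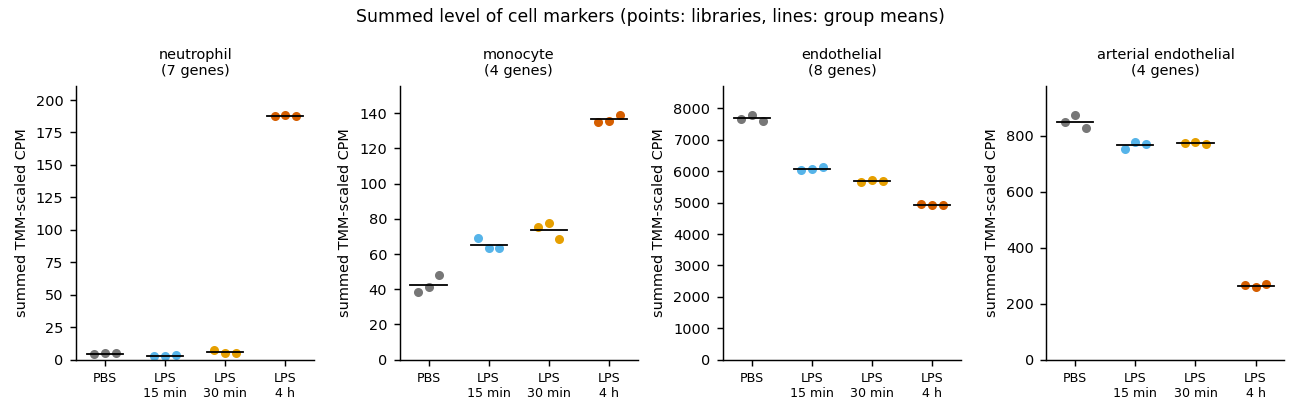
Summed TMM-scaled CPM (vertical axes, starting at 0) of 7 neutrophil, 4 monocyte, 8 endothelial, and 4 arterial endothelial markers in the 4 groups; points are libraries and lines group means. The neutrophil sum stood at 187.9 at 4 h against 4.75 in PBS, and the arterial endothelial sum at 264.5 against 850.1.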

How the data were processed

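Cerebral vessel RNA was measured in 12 libraries, grouped by the sample titles. The authors ran Salmon 1.2.1 and tximport on GRCm38.p6 and normalized with DESeq2. The estimated counts that the authors deposited are fragments per transcript, not normalized. The TPM values deposited with them are per transcript. The gene table deposited by the authors is a normalized signal, counts divided by size and length factors, and its columns were matched to libraries by the sequencing number in the file names (12 of 12 also matched best by value).

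Counts were summed to genes and the sums then rounded. The genes were those of GENCODE M21 (GRCm38), with which 139852 of 140948 transcripts joined. The rest held 0.482% to 0.850% of fragments. Genes were filtered with filterByExpr (minimum count 10, total 15, share 0.7), scaled by TMM, fitted together in edgeR 4.0.16 (R 4.3.3; glmQLFit), and tested with glmTreat (log2 limit 0.58, Benjamini-Hochberg over 19150 genes). The SE was derived from the test statistic. P-values measure the spread between pools of 2 mice, and with 3 against 3 libraries an exact permutation of 1 gene cannot go below 0.1. The fit was tested on simulated data.

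Named genes were the 9 members, genes of 5 haemostasis lists that passed the filter, marker genes, and for each member the 3 genes of at least 5 CPM with the nearest course. Members and lists were chosen with earlier results of these data known. Transcript shares and ratios were not tested. A gene of the plasminogen list is counted with its list but not reported here. Alternatives were DESeq2 1.42.0, RLE factors, library size alone, no filter, no fold limit, a length offset, a fit on 2 groups, a block for the library number, limma 3.58.1 on the gene table (1 or 5 added before log2) and on TPM (0.1 added), and leaving out each library. Library numbers are shared between groups but did not pair libraries: the deviations of 18 same-number pairs correlated at -0.05 to 0.07, and the labels name no shared litter or day.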

Additional observations from a re-analysis of the deposited data

Results flagged for a closer look

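The change after LPS differed between time points for 6 of the 9 genes, as tested directly between LPS groups in edgeR, where 4.76% of all genes were called from 15 to 30 min and 28.9% from 30 min to 4 h. From 15 to 30 min the log2 difference was 0.66 for Plat and 2.22 for Plaur. From 30 min to 4 h it was -0.73 for Thbd, 2.46 for Procr, 1.21 for Pros1, 1.07 for Plat, 1.62 for Plau, and 2.38 for Plaur. In the step for which each gene is named, the 3 libraries of one group lay wholly above or below those of the other, as they did for 47.6% and 67.5% of all genes in the 2 steps. Groups of 3 are too small for a test of single outlying libraries.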

How the results depend on the processing

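Over 45 pairs of gene and comparison and 23 other settings, 948 of 1035 values kept their direction and side of the threshold. None of the 391 values of the 17 called pairs changed direction, and 14 lost the call. The cause of the changes below was not tested unless the setting itself shows it.

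Counts of members called changed as follows. Without the fold limit, which asks only whether a gene changed at all, 7 of 9 passed at 15 min, 6 at 30 min, and 6 from 15 to 30 min, where 7393, 7066, and 7153 of all genes did, against 814, 884, and 911 with it. At 4 h 8 members (all but F3) and 13124 genes passed against 6 and 6315, and from 30 min to 4 h 9 members and 12498 genes against 6 and 5530. With library size alone 1 member was called at 30 min and 1 from 15 to 30 min, and 8 (4 higher, 4 lower) both at 4 h and from 30 min to 4 h, and the count of all genes was 10523 and 8915 in these last comparisons. With limma on TPM 1 and 1 were called, 7 (3 higher, 4 lower) at 4 h, and 6 (3 higher, 3 lower) from 30 min to 4 h, and all genes called were 387, 520, 10233, 663, and 7508 over the 5 comparisons. With limma on the gene table, 1 or 5 added, 1 member was called from 15 to 30 min, and genes called were 410 or 401 at 15 min, 536 or 518 at 30 min, and 448 or 437 between them. Leaving out a library gave 1 to 1 members at 15 min, 2 to 2 at 30 min, 6 to 6 at 4 h, 1 to 2 from 15 to 30 min, and 6 to 6 from 30 min to 4 h. With a replicate block the counts were 1, 2, 6, 2, and 6, and the block changed no call of a member.

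Pairs that changed direction had not been called. At 15 min Tfpi was 0.01, and -0.0072 with DESeq2, -0.0073 with RLE factors, -0.0118 with library size, -0.15 with the length offset, -0.167 and -0.166 on the gene table, -0.153 on TPM, and -0.0331 to 0.0536 without single libraries. At 30 min Tfpi was 0.0317 with the length offset and 0.0141 and 0.014 on the gene table. Procr was -0.0742 with library size and -0.19 on TPM. Vwf was 0.0184 with the length offset and 0.0057 and 0.0057 on the gene table. Plau was -0.13 with library size, -0.27 on TPM, and -0.0307 to 0.0919 without single libraries. At 4 h F3 was -0.69 with library size, -0.0406 without the filter, -0.15 with the length offset, -0.0255 in a fit on 2 groups, -0.145 and -0.144 on the gene table, -1.02 on TPM, and -0.0446 to 0.0553 without single libraries. From 15 to 30 min Tfpi was 0.18 with the length offset and 0.18 and 0.18 on the gene table. Thbd was -0.0617 with library size and -0.21 on TPM. Pros1 was -0.0747 with library size, -0.0295 with the length offset, -0.0255 and -0.0254 on the gene table, and -0.32 on TPM. On TPM Vwf was -0.0265 and Plau -0.0586.

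The step of Vwf from 30 min to 4 h, not called at -0.48, passed with the length offset (-0.78, adjusted p = 8.49e-05) and on the gene table (-0.77, 0.000597). Few fragments limit Plau in each group and the transcript shares of F3 at 4 h.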
